A study of Mus musculus with 32 samples.

Results

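Immunoglobulin variable (V) segments were followed in RNA from whole mesothelioma tumors of 32 mice. They were taken as every gene whose symbol starts with Ighv (heavy chain), Igkv (kappa light chain) or Iglv (lambda light chain) and that held at least 20 counts summed over the 32 mice, which gave 209 of 39676 genes. These were 110 of 183 Ighv genes on chromosome 12, 96 of 160 Igkv genes on chromosome 6 and 3 of 3 Iglv genes on chromosome 16. AB1 and AE17 are both lines of mouse mesothelioma cells, and 500000 AB1 cells were given to BALB/c mice or 1000000 AE17 cells to C57BL/6 mice, either into the pleural space (IPL tumors) or under the skin of the flank (SC tumors). All mice were untreated females of 8 to 10 weeks, and 8 tumors per group were taken on day 10. The same cell line was therefore grown in both sites, and the model, the mouse strain and the number of cells inoculated changed together. Lungs and surrounding tissues were removed, but the RNA came from tumor and host cells alike, and fewer plasma cells or B cells cannot be told apart from less V RNA per cell.

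The V segment forms most of the part of an antibody chain that contacts antigen. In each B cell a single V segment per chain is joined at random to a short J segment, in the heavy chain by way of a D segment, so that a clone of B cells carries the same V segments in all its cells, and the antibody-secreting plasma cells that arise from it make these transcripts in very large amounts. A tumor with many unrelated B cells therefore shows counts spread over many segments, whereas a few large clones or plasma cells place most counts on a few.

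Libraries held 15432258 to 20649645 counts per mouse. The 209 segments together held 75801 counts. Another 137 V genes fell under the threshold, 88 of them with 0 counts, and held 378 counts or 0.496% of all V counts. Igkv1-99 and Igkv4-51 with 20 counts and Ighv1-58 and Ighv3-7 with 21 were the members nearest the threshold, and Igkv14-130 and Igkv8-34 with 18 and Ighv1-38 and Ighv5-2 with 17 lay just outside. Of the members, 186 were annotated as functional V genes and 23 as pseudogenes, which held 2.78% of the counts. As a check of the labelled tumor, Pdpn was at 74.2 counts per 1000000 (CPM) or more in every mouse, whereas the mesothelial markers Upk3b and Lrrn4 were at 0 in at least 1 mouse of each group and differed between sites. Upk3b held 28 to 114 counts in 7 of 8 AE17 IPL tumors and 0 or 1 in AE17 SC tumors, and 590 counts in AB1 IPL 2 against 0 to 10 in the other AB1 IPL tumors.

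Germline sequences of V exons are shown for segments that took the largest shares of single tumors and for both main lambda segments, since the reads were assigned among such near relatives. They are GENCODE transcripts on GRCm38, written 5′ to 3′ on the transcribed strand and cut at 300 bases, and capitals mark the bases that differ from the nearest relative among all V genes. The first 4 held the leading and second shares of both chains in AB1 IPL 7 (replicate 7) and lie at chr12:114140697-114140996, chr12:114109006-114109305, chr6:68631963-68632260 and chr6:68704508-68704805, all on the minus strand. Nearest relatives are Ighv9-2 for Ighv9-3 (94.4% identity), Ighv9-1 for Ighv9-2, Igkv10-94 for Igkv10-96 (94.6%) and Igkv10-95 for Igkv10-94.
Ighv9-3: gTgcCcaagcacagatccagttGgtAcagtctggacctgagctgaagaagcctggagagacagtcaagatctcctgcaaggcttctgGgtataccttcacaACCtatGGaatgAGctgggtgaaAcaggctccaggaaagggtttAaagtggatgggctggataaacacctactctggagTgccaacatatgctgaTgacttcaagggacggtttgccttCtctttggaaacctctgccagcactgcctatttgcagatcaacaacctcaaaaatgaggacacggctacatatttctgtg
Ighv9-2: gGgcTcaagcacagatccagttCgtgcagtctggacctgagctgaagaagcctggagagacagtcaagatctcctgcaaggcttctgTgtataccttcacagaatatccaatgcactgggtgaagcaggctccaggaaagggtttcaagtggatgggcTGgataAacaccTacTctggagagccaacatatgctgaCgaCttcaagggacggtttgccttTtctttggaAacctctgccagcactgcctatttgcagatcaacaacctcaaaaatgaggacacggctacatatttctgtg
Igkv10-96: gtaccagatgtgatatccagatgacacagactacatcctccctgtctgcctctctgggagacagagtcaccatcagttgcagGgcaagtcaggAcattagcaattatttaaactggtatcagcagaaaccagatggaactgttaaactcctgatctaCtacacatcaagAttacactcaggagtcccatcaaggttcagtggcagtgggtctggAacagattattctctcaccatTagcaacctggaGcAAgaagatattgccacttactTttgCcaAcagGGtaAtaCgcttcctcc
Igkv10-94: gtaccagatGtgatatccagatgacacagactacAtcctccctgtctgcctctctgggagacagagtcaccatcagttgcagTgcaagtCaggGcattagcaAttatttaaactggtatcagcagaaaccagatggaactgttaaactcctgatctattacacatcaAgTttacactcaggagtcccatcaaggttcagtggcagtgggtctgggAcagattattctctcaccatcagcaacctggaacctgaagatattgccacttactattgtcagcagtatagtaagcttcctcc

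The next 3 are the leading Ighv and the leading and second Igkv segments of AB1 IPL 4 and lie at chr12:113611188-113611487 (minus strand), chr6:68930269-68930566 (minus) and chr6:68939770-68940067 (plus). Igkv13-85 and Igkv13-84 are each other's nearest relatives (97.0% identity, 9 bases), and that of Ighv2-3 is Ighv2-6-8 (94.4%).
Ighv2-3: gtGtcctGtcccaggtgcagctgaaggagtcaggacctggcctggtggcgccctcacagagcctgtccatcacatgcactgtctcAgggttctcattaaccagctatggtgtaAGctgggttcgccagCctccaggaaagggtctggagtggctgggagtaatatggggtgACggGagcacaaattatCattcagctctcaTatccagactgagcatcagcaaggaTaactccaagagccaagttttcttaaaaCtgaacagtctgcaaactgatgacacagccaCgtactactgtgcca
Igkv13-85: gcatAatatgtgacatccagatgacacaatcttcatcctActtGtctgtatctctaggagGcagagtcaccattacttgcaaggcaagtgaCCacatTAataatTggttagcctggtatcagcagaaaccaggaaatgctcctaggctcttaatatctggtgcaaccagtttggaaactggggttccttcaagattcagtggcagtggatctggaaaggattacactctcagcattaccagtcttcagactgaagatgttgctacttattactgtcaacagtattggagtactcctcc
Igkv13-84: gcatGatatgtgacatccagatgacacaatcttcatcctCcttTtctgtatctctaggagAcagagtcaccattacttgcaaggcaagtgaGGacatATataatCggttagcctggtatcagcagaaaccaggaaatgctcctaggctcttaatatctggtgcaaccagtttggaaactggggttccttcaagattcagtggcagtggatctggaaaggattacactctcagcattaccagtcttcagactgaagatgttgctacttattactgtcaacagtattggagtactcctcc

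Ighv1-80 (chr12:115912349-115912648, minus strand) and Igkv4-55 (chr6:69607278-69607577, minus) led AE17 IPL 2. Their nearest relatives are Ighv1-82 and Igkv4-68, which differ from them at 12 bases each.
Ighv1-80: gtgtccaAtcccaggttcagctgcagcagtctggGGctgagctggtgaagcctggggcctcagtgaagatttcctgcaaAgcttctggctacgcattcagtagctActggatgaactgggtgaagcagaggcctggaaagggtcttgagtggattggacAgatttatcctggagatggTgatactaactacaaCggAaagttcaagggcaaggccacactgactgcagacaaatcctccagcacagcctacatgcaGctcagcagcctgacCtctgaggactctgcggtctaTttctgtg
Igkv4-55: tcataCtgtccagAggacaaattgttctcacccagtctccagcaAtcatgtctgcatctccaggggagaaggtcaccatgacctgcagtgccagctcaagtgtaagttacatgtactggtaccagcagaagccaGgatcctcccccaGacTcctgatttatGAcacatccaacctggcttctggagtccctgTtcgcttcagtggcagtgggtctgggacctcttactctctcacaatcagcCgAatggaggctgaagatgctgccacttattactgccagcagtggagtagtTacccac

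Iglv1 (chr16:19085022-19085321, minus strand) and Iglv2 (chr16:19260406-19260705, minus) carry most lambda counts and differ from each other at 9 bases. Iglv3 held 128 counts in AB1 and 98 in AE17 tumors.
Iglv1: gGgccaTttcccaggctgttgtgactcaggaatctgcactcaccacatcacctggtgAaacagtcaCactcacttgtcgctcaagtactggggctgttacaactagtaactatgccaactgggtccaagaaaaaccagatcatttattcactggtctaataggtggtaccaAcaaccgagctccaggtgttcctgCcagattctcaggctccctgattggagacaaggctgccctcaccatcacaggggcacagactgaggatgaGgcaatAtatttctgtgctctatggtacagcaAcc
Iglv2: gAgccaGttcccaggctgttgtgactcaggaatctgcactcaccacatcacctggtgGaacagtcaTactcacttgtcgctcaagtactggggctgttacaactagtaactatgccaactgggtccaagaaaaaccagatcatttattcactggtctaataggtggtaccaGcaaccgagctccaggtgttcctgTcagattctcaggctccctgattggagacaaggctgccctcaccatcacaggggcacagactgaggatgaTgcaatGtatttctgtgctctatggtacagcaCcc

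V counts were higher in IPL than in SC tumors on average in both models, and a few pleural tumors held most of them. Summed over the 209 segments, AB1 IPL tumors ranged from 14.2 to 1571 CPM with a median of 97.0, and AB1 SC tumors from 6.93 to 53.3 CPM with a median of 11.3. Of the 8 AB1 IPL tumors 4 lay above every AB1 SC tumor and none lay below, so that the groups overlapped. On the log2 CPM scale the means were 6.51 ± 2.51 (SD, n = 8) and 3.89 ± 0.99 (SD, n = 8), a difference of 2.63 that is about as large as the spread among the IPL tumors.

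AE17 IPL tumors ranged from 2.97 to 757 CPM with a median of 10.0, and AE17 SC tumors from 0.843 to 15.3 CPM with a median of 2.95. Only 3 of the 8 AE17 IPL tumors lay above every SC tumor. The log2 means were 4.48 ± 3.15 (SD, n = 8) and 1.64 ± 1.24 (SD, n = 8), with a difference of 2.84 between means and of 1.71 between medians. Without AE17 IPL 5 and 8, which held 96.4% of the group's V counts, the difference was 1.20.

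**Figure D1:**
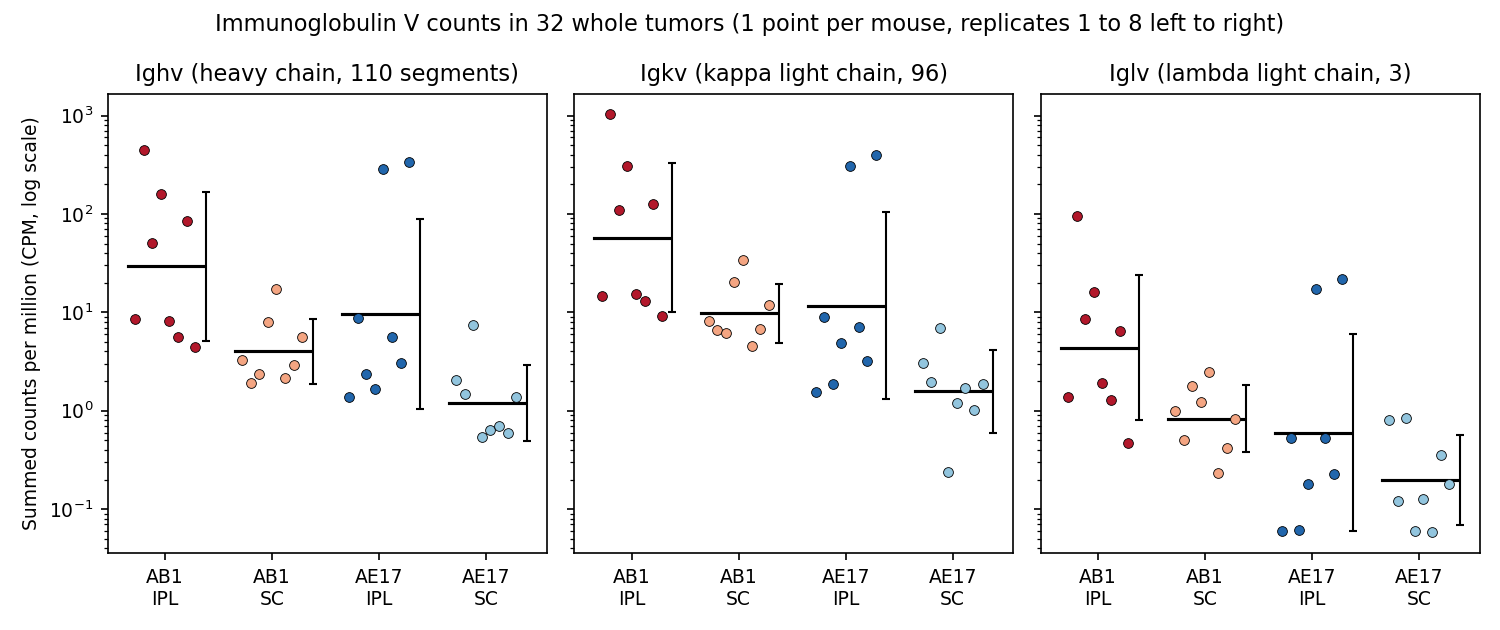
Summed CPM (log scale) of the Ighv, Igkv and Iglv segments in each of 32 tumors, with 8 mice per group. Horizontal lines are means and bars 1 SD, both taken on the log2 scale. AB1 IPL 2 and AE17 IPL 5 and 8 stand highest in their groups for all 3 kinds of segment.

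A set of 6 tumors, namely AB1 IPL 2, 3, 4 and 7 and AE17 IPL 5 and 8, held 92.6% of all V counts, and AB1 IPL 2 alone held 39.0%. AB1 IPL 2 gave 29535 V counts, AE17 IPL 8 gave 13303 and AE17 IPL 5 gave 10116, whereas 6 of the AE17 SC tumors gave fewer than 60. All 3 loci moved in the same way in AB1, where the difference of log2 means between IPL and SC tumors was 2.86 for Ighv, 2.56 for Igkv and 2.40 for Iglv. In AE17 it was 3.01 for Ighv, 2.89 for Igkv and 1.59 for Iglv, and Iglv counts there were between 1 and 14 in 14 of the 16 tumors.

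Counts of V segments followed those of the constant regions, which every antibody transcript also carries. There were 40.0 to 77.3 Igkv counts for every 100 counts on Igkc, the kappa constant region, over the 32 mice. For the heavy chain the ratio was less even. Ighv counts per 100 counts on the heavy chain constant regions ranged from 9.50 to 40.7 in AB1 IPL, 4.25 to 16.2 in AB1 SC, 2.79 to 23.7 in AE17 IPL and 1.04 to 8.53 in AE17 SC tumors. Most constant counts of the AE17 SC tumors lay on Ighm, the IgM constant region, which held 326 to 1147 counts per tumor beside 9 to 124 Ighv counts.

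Other B lineage genes were read beside the totals. Of all genes tested, 12.3% rose and 10.7% fell in AB1 IPL against SC tumors (edgeR, adjusted p under 0.05), and 2.60% rose and 3.13% fell in AE17. Sequencing lane, which overlaps with site, was not in these fits. Of the 13 constant region genes and J chain, 8 of 11 tested rose in AB1 IPL tumors and 4 of 6 in AE17 IPL tumors, and none fell. Jchain, which links antibody units into polymers, rose by 3.35 on the log2 scale in AB1 (edgeR adjusted p = 0.0160) and 5.07 in AE17 (adjusted p = 0.0348). Of 12 B cell genes 11 had a row. In AB1, 8 were tested, 4 rose and 1 fell, and in AE17, 7 were tested and 2 rose. Cd79a, the signaling chain of the B cell receptor, rose in both, by 0.84 and 4.07. The summed B cell list was 71.5 to 208 CPM in AB1 IPL, 67.5 to 100.4 in AB1 SC, 162 to 481 in AE17 IPL and 40.6 to 182 in AE17 SC tumors. It was highest in AB1 IPL 2 among the AB1 tumors and in AE17 IPL 5 among the AE17 tumors. Of 12 plasma cell genes 8 had a row. None rose in either model and 4 of 7 tested fell in AB1. The list's sum was 592 to 989 CPM in AB1 IPL, 633 to 760 in AB1 SC, 880 to 1076 in AE17 IPL and 911 to 1058 in AE17 SC tumors. Among the AB1 tumors it was highest in AB1 IPL 2 (989 CPM) and AB1 IPL 4 (852 CPM). Txndc5 held the most counts of this list in every tumor, and Xbp1 and Sdc1 were also abundant in each. The plasma cell receptor gene Tnfrsf17 had a median of 0 in both AE17 groups.

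Markers of tissue around a tumor also moved with some of the highest V counts. All 5 tested skeletal muscle genes rose in AB1 IPL tumors, with a sum of 95.4 to 3518 CPM against 50.7 to 325 in AB1 SC. In AB1 IPL 2, which had the most V counts, that sum was the lowest of its group, but other lists were high. Its mesothelium list summed to 279 CPM, the highest of all 32 tumors, with the other AB1 IPL tumors between 76.0 and 117 CPM. Its adipocyte list summed to 232 CPM, against 26.9 to 57.7 CPM in AB1 SC tumors. AB1 IPL 1 was higher on this list, at 303 CPM, with only 492 V counts. The adipocyte list reached 819 CPM and the cardiac muscle list 223 CPM in AE17 IPL 5, the highest values of all 32 tumors. In AE17 IPL 8 they were at 63.2 and 8.88 CPM, and its cardiac muscle sum was the lowest of its group. The list of lymph node stroma, high endothelium and follicular dendritic cells ranged from 29.2 to 282 CPM in AB1 IPL, 18.3 to 48.2 in AB1 SC, 175 to 539 in AE17 IPL and 83.4 to 165 in AE17 SC tumors. It was highest in AB1 IPL 2 and AE17 IPL 5, but its genes did not move together. In AB1 IPL 2 the sum was mainly Clu (3906 counts) and Cxcl13 (1354), whereas Ccl21a held 14 counts, with 5 to 456 over the group. AE17 IPL 8, with the most V counts of the AE17 tumors, had a list sum of 196 CPM, the third lowest of its 8, and 9 counts on Ccl21a, against 538 to 2047 in the other AE17 IPL tumors. Genes for B cell precursors and V(D)J recombination were low, with list sums of 0.408 to 10.4 CPM in AB1 IPL and 0.0589 to 0.362 CPM in AB1 SC tumors. The highest sum was in AB1 IPL 3, with 87 counts on Rag1 and 63 on Vpreb3. The lowest IPL sum was 7 counts in AB1 IPL 6, and the highest SC sum was 6 counts in AB1 SC 7. All of these lay on Vpreb1, so the lowest IPL tumors were not set apart from SC tumors. In AE17 the sums overlapped, at 0 to 3.26 CPM in IPL and 0.127 to 0.535 CPM in SC tumors, and none of these genes entered the test in either model. The germinal centre list stayed between 119 and 184 CPM, none of its genes passing in either model, and lung epithelium genes summed to at most 11.9 CPM. All 4 T cell genes fell in AB1 IPL tumors and 0 of 4 passed in AE17, and 2 of 3 tested thymocyte genes fell in AB1. The part of these tissues in the V counts was not tested.

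How far the counts were concentrated on a few segments was described by usage. The usage share of a segment is its count divided by its exon length, as a percent of the sum over the same locus in that mouse. The effective number of segments is the inverse of the chance that 2 counts drawn from a locus in a mouse fall on the same segment, and it was computed for mice with at least 50 counts on the locus. For Ighv it averaged 29.5 ± 17 (SD, n = 8) in AB1 IPL, 33.3 ± 9.5 (SD, n = 4) in AB1 SC and 18.3 ± 11.9 (SD, n = 5) in AE17 IPL tumors. For Igkv it averaged 17 ± 10.1 (SD, n = 8), 28.4 ± 8.5 (SD, n = 8) and 18.2 ± 10.3 (SD, n = 6) in the same groups. The ranges of these groups overlapped on both loci. AE17 SC tumors held too few counts, with 1 mouse for Ighv at 16.5 and 2 mice for Igkv at 9.56 and 14.5.

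**Figure D2:**
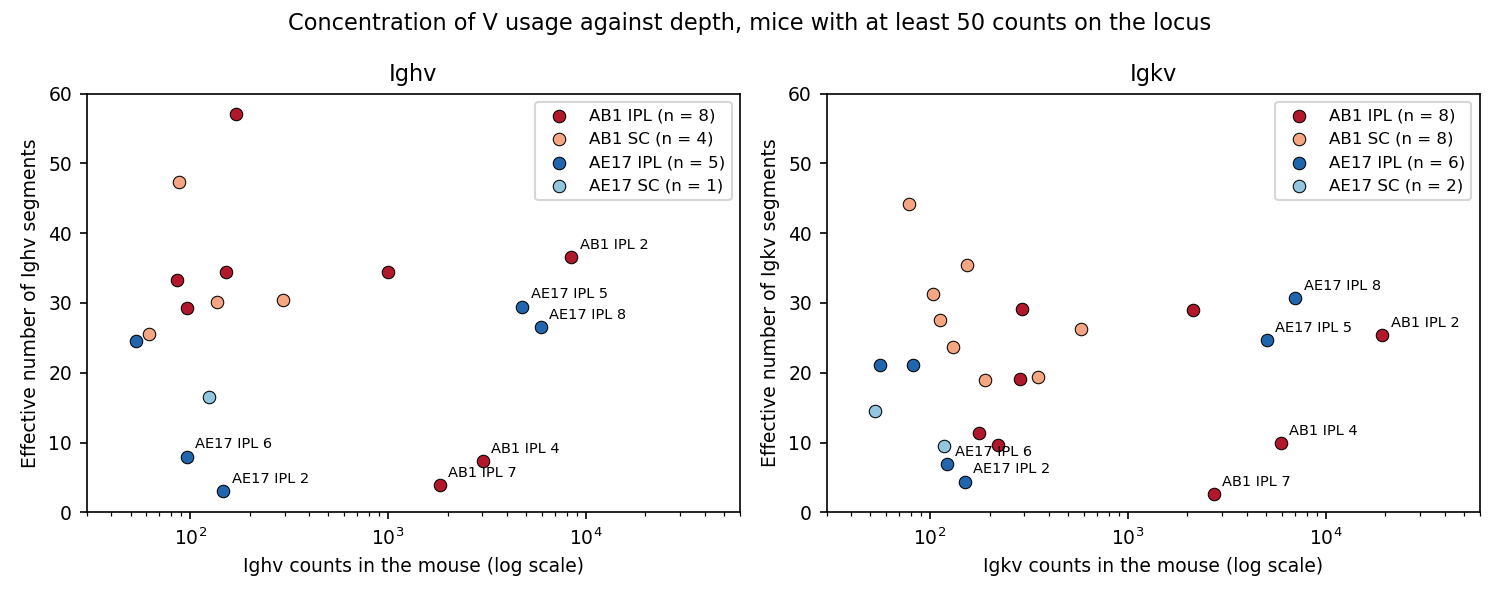
Effective number of Ighv (left) and Igkv (right) segments against the counts on that locus (log scale), with 1 point per mouse that had at least 50 counts and colors for the 4 groups. AB1 IPL 7 and AE17 IPL 2 lie lowest on the left, and mice below 10 effective segments include some with few and some with many counts.

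Single tumors differed far more than the groups did. AB1 IPL 7 had an effective number of 3.91 Ighv and 2.58 Igkv segments, although it held 1823 Ighv and 2721 Igkv counts. AB1 IPL 4 had 7.30 and 9.96 on 3011 and 5906 counts. AB1 IPL 2, AE17 IPL 5 and AE17 IPL 8, with the most counts, had between 26.5 and 36.5 effective Ighv and between 24.7 and 30.7 effective Igkv segments. High V counts thus came with broad usage in these 3 tumors and with narrower usage in AB1 IPL 4 and 7.

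In AB1 IPL 7, 738 of 1823 Ighv counts (40.5%, exact 95% binomial interval 38.2 to 42.8%) lay on Ighv9-3 and 439 (24.1%, 22.1 to 26.1%) on Ighv9-2. Of its 2721 Igkv counts, 1653 (60.7%, 58.9 to 62.6%) lay on Igkv10-96 and 324 (11.9%, 10.7 to 13.2%) on Igkv10-94. The second segment was the nearest relative in sequence of the first in both chains. The whole Ighv9 family took 89.3% of this tumor's Ighv usage and the Igkv10 family 74.6% of its Igkv usage, the highest family shares of the AB1 tumors. Its switched heavy chain constant counts, those on classes other than IgM, IgD and IgE, lay to 59.8% on Ighg2c.

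AB1 IPL 4 had 1063 of 3011 Ighv counts on Ighv2-3 (35.3%, 33.6 to 37.0%) and 1417 of 5906 Igkv counts on Igkv13-85 (24%, 22.9 to 25.1%). Igkv13-84, at 97.0% identity to Igkv13-85, was second with 681 counts (11.5%, 10.7 to 12.4%). This tumor's remaining usage was broad. It still had 85 Ighv and 73 Igkv segments with at least 3 counts each, the smallest number taken as detected.

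AE17 IPL 2 was concentrated at a low depth. Ighv1-80 held 82 of its 147 Ighv counts (55.8%, 47.4 to 64.0%) and Igkv4-55 held 69 of 150 Igkv counts (46.0%, 37.8 to 54.3%). The IgG3 constant region Ighg3 took 560 of its 617 switched constant counts (90.8%, 88.2 to 92.9%), the highest share of 1 class among tumors with at least 100 such counts. AE17 IPL 6 had 32 of 96 Ighv counts on Ighv6-3 (33.3%, 24 to 43.7%) and 45 of 122 Igkv counts on Igkv14-111 (36.9%, 28.3 to 46.1%). Counting intervals cover counting error only, since reads carried no molecular identifiers.

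Leading shares of the AB1 SC tumors did not reach those of the concentrated IPL tumors. Among AB1 SC tumors with at least 50 counts the leading Ighv usage share lay between 6.42% and 13.4% (n = 4) and the leading Igkv share between 8.24% and 16.8% (n = 8). AB1 SC 5 was led by Ighv5-6 with 34 of 294 counts (11.6%, 8.1 to 15.8%) and AB1 SC 4 by Ighv9-3 with 13 of 137 (9.5%, 5.1 to 15.7%). Igkv19-93 led both AB1 SC 4, with 58 of 350 counts (16.6%, 12.8 to 20.9%), and AB1 IPL 8, with 48 of 177 (27.1%, 20.7 to 34.3%), and Igkv9-120 led AB1 SC 8 with 24 of 189 (12.7%, 8.3 to 18.3%). In AE17 SC 3, the only AE17 SC tumor with at least 100 counts on each locus, Ighv1-26 held 20 of 124 counts (16.1%, 10.1 to 23.8%) and Igkv6-17 held 32 of 117 (27.4%, 19.5 to 36.4%).

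**Figure D3:**
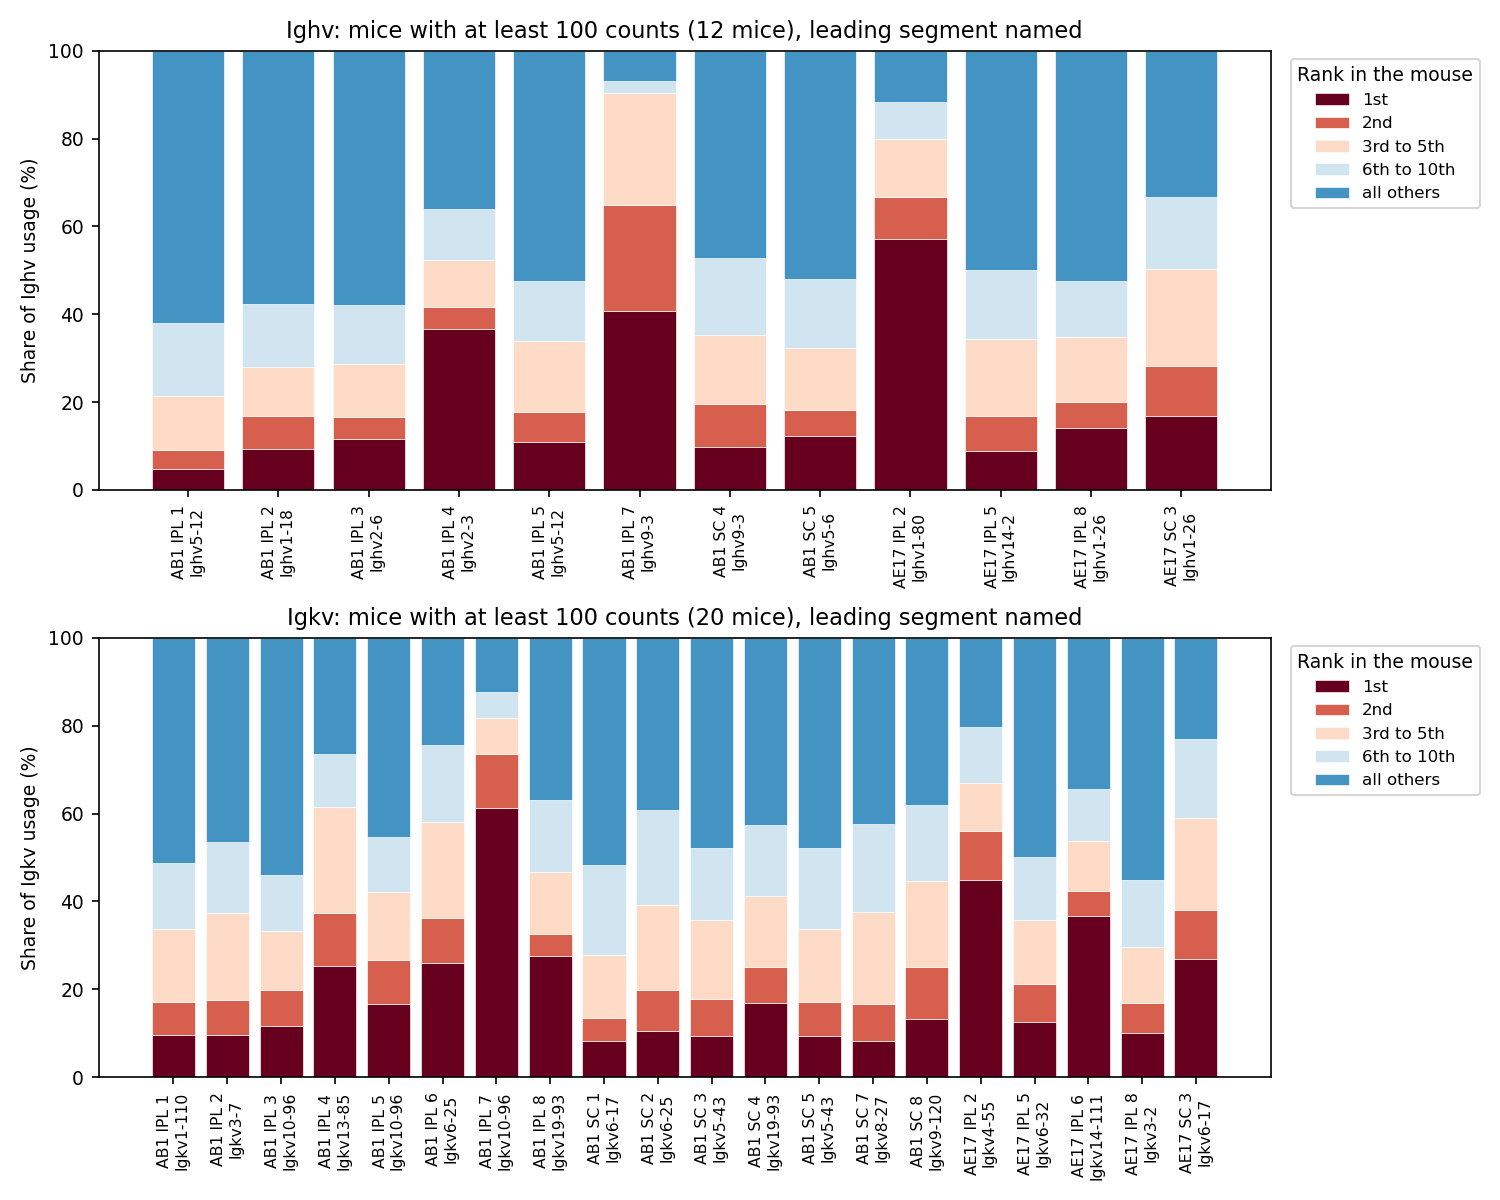
Usage of Ighv (top) and Igkv (bottom) in every tumor with at least 100 counts on the locus, stacked by the rank of the segments within that tumor, as a percent of usage. The leading segment is named under each bar. The 1st rank reaches 57.0% for Ighv1-80 in AE17 IPL 2 and 61.2% for Igkv10-96 in AB1 IPL 7.

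Leading segments were shared by some tumors and not by others. Igkv10-96 led Igkv in AB1 IPL 3, 5 and 7, and Igkv6-17 led it in AB1 SC 1 and AE17 SC 3. Ighv9-3 led Ighv in AB1 IPL 7 and AB1 SC 4. The 12 tumors with at least 100 Ighv counts had 9 different leading segments, and the 20 with at least 100 Igkv counts had 14. The leading segment took at least 20% of usage in 3 of 12 tumors for Ighv and in 7 of 20 for Igkv. In 2 of the 12 and 4 of the 20 tumors the second segment was the nearest relative of the leading one. For pairs of tumors with at least 1000 counts on the locus, shared usage, the sum of the smaller share of every segment, ranged from 12.8% to 53.0% for Ighv among the 6 AB1 pairs and was 56.8% for the 1 AE17 pair. It ranged from 9.34% to 48.5% for the 8 pairs of an AB1 with an AE17 tumor. Usage of Igkv was shared to 21.6% to 62.0%, 55.1% and 19.4% to 49.8% in the same order. These ranges overlap.

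Members were often seen in 1 tumor above all. In 83 of 209 segments more than 50% of the counts came from a single mouse. AB1 IPL 2 gave the most counts for 110 segments, AE17 IPL 8 for 52, AE17 IPL 5 for 25 and AB1 IPL 4 for 12. A segment had at least 3 counts in a median of 7 mice, and at most in 25.

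The 10 segments with the most counts were 6 Igkv segments, 3 Ighv segments and Iglv1, led by Igkv10-96 with 3721 counts. Of the 1712 counts on Igkv13-85, 1417 came from AB1 IPL 4, and of the 2038 on Igkv3-7, 1810 came from AB1 IPL 2, in which it led with 9.63% of usage. Igkv6-15 held 1553 counts, Ighv1-18 held 1416, of which 760 came from AB1 IPL 2, and Ighv1-26 held 1283, of which 805 came from AE17 IPL 8.

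Median usage of several Ighv families differed between AB1 and AE17 tumors, with ranges that overlapped between the IPL tumors of both, and the difference was not tested. The large Ighv1 family, 60 of the 110 Ighv members, took a median of 34.1% of Ighv usage in AB1 IPL (6.53 to 48.2%, n = 8), 35.9% in AB1 SC (32.5 to 38.7%, n = 4) and 62.2% in AE17 IPL tumors (30.1 to 88.7%, n = 5), and 87.9% in AE17 SC 3. Ighv5 took a median of 12.3% in AB1 IPL (1.11 to 26.5%), 13.1% in AB1 SC (10.7 to 30.3%) and 3.3% in AE17 IPL tumors (1.83 to 6.62%). Ighv2 took 9.2% (0.63 to 51.8%), 14.5% (4.67 to 30.6%) and 3.7% (0 to 13%). Ighv9 took 6.9% (0 to 89.3%), 12.5% (6.69 to 19.8%) and 2.1% (0 to 3.88%). Because AB1 and AE17 tumors grew in different strains, cell line, strain and the distance of the strain from the reference genome cannot be told apart in these shares.

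Among single segments, Ighv2-9 had the highest median Ighv usage in both AB1 groups, at 3.9% in IPL and 5.6% in SC tumors, and held at most 10 counts in any AE17 tumor. Ighv1-26 had the highest median in AE17 IPL tumors at 4.4%, with 0.43% and 0.56% in the AB1 groups. Ighv1-18 had 798 counts in AB1 and 618 in AE17 tumors, and Ighv1-15 had 631 and 62, but 760 and 615 of the AB1 counts came from AB1 IPL 2 alone. Position along the locus was also compared. The 63 Ighv members between the midpoint of the locus and the constant regions, 57.3% of all Ighv members, took a median of 79.7% of Ighv usage in AB1 IPL, 79.2% in AB1 SC and 63.3% in AE17 IPL tumors, with ranges of 58.7 to 95.2%, 66.1 to 87.1% and 13.4 to 81.4%, which overlap.

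**Figure D4:**
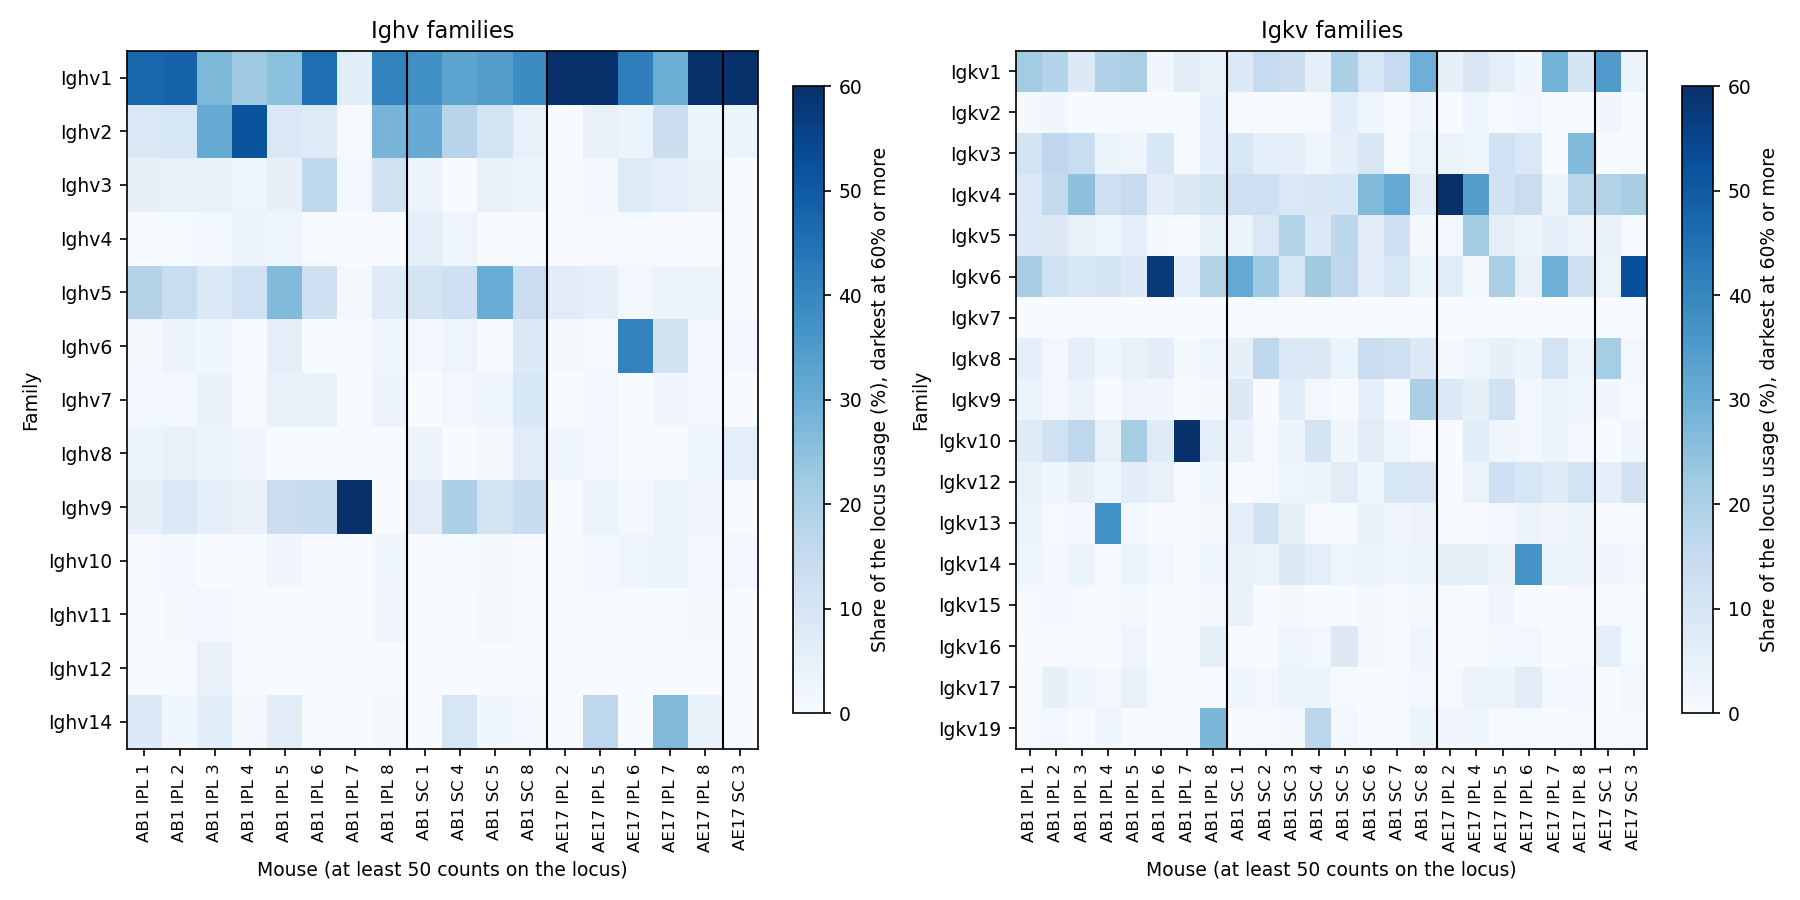
Usage of Ighv (left) and Igkv (right) families in tumors with at least 50 counts on the locus, as a percent of the locus usage (color, darkest at 60% or more). Black lines part the 4 groups. Ighv1 is darker in most AE17 tumors than in AB1 tumors, but not in all. Single dark cells mark AB1 IPL 7 (Ighv9, Igkv10), AB1 IPL 4 (Ighv2, Igkv13) and AE17 IPL 6 (Ighv6, Igkv14).

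Igkv usage was spread over more families. Igkv4, with 29 of 96 members, took medians of 11.7%, 10.8% and 15.6% in AB1 IPL, AB1 SC and AE17 IPL tumors. Igkv1 took 12.9%, 14.2% and 7.5%, and Igkv6 took 11.3%, 12.9% and 9.6%, each with ranges that overlapped widely. The highest median of a single segment was 6.6% for Igkv10-96 in AB1 IPL, 4.5% for Igkv5-43 in AB1 SC and 3.1% for Igkv14-111 in AE17 IPL tumors. Igkv14-111 had at least 1 count in each of the 24 tumors with at least 50 Igkv counts.

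Lambda segments were a small share of light chain usage in most tumors. Iglv made up a median of 7.53% of light chain V usage in AB1 IPL, 6.53% in AB1 SC and 5.07% in AE17 IPL tumors. It was 9.90% in AE17 SC tumors, with a range of 3.15 to 25.8% on 1 to 14 Iglv counts each. Iglv1 took the largest median part of Iglv usage in all 4 groups, at 67.8%, 55.8%, 58.3% and 65.2%. Heavy chain segments made up a median of 32.4% and 28.1% of all V usage in AB1 IPL and SC tumors and 46.9% and 37.8% in AE17 IPL and SC tumors. AB1 and AE17 tumors overlapped in this share, with ranges of 28.5 to 39.6% in AB1 IPL, 21 to 32.2% in AB1 SC, 24.7 to 55.8% in AE17 IPL and 28.9 to 63.6% in AE17 SC tumors. AE17 IPL 4 held the value of 24.7%, on 113 V counts, and the other 7 AE17 IPL tumors lay between 42.9% and 55.8%, above every AB1 tumor.

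Segments were then tested one by one between IPL and SC tumors in each model. In AB1, only 6 of the 209 segments had enough counts in enough mice to enter the test, and all 6 rose (edgeR, adjusted p under 0.05), where 12.3% of all genes tested rose and 10.7% fell. The filter keeps members that are high in several IPL tumors, so that this count describes these 6 and not the 209. None of these 6 stayed past the threshold with sequencing lane in the fit, as described below.

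Of these 6, Igkv10-96 had the largest log2 fold change. Its counts in AB1 IPL tumors were 8 to 1653 with a median of 67.5, and in AB1 SC tumors 1 to 10 with a median of 2.5, and it rose by 6.56 ± 1.30 (SE) on the log2 scale (adjusted p = 0.00183). All but 1 of the IPL tumors lay above every SC tumor.

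Igkv1-117 and Igkv1-110, close relatives at 96.8% identity, were less separate. Igkv1-117 held 2 to 1664 counts (median 28) in IPL and 2 to 42 (median 6.5) in SC tumors, with a log2 fold change of 4.49 ± 1.25 (SE, adjusted p = 0.0158). Igkv1-110 held 2 to 1338 counts (median 27.5) against 2 to 26 (median 8.5), with a log2 fold change of 4.46 ± 1.22 (SE, adjusted p = 0.0145). The groups overlapped for both, and AB1 IPL 2 and 4 were highest. Without AB1 IPL 2 the value of Igkv1-117 was 2.65.

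Iglv1 held 6 to 1281 counts (median 58.5) in IPL and 3 to 29 (median 8.5) in SC tumors and rose by 4.23 ± 1.08 (SE, adjusted p = 0.00945), or by 2.52 without AB1 IPL 2. Igkv6-25 rose by 3.14 ± 0.88 (SE, adjusted p = 0.0148), with 3 to 244 counts (median 30.5) in IPL and 0 to 14 (median 5.0) in SC tumors. Igkv6-17 rose by 2.43 ± 0.82 (SE, adjusted p = 0.0395), with 2 to 149 (median 17.5) against 0 to 19 (median 3.0) counts. Both are from the Igkv6 family, and their IPL and SC tumors overlapped. Igkv6-17 was no longer past the threshold in 8 of the 16 fits that left out 1 mouse.

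With no filter, 205 segments could be tested in AB1 and 87 rose, 46 of them Ighv, 38 Igkv and 3 Iglv, and 0 fell, where 7.99% of all genes rose. DESeq2 gave 84 of 205, of which 25 received no adjusted p, where 12.3% of all genes rose and 8.99% fell. None of the 6 segments kept an adjusted p under 0.05 when sequencing lane entered the fit, and none of 130 segments passed among the 10 AB1 tumors of lane 3. All 8 AB1 IPL tumors were in lane 3 with 2 of the SC tumors, and the other 6 SC tumors were in lane 2, so that lane and site overlap. AB1 IPL 2 held the highest count for 5 of these 6 segments, and AB1 IPL 7 for Igkv10-96.

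**Figure D5:**
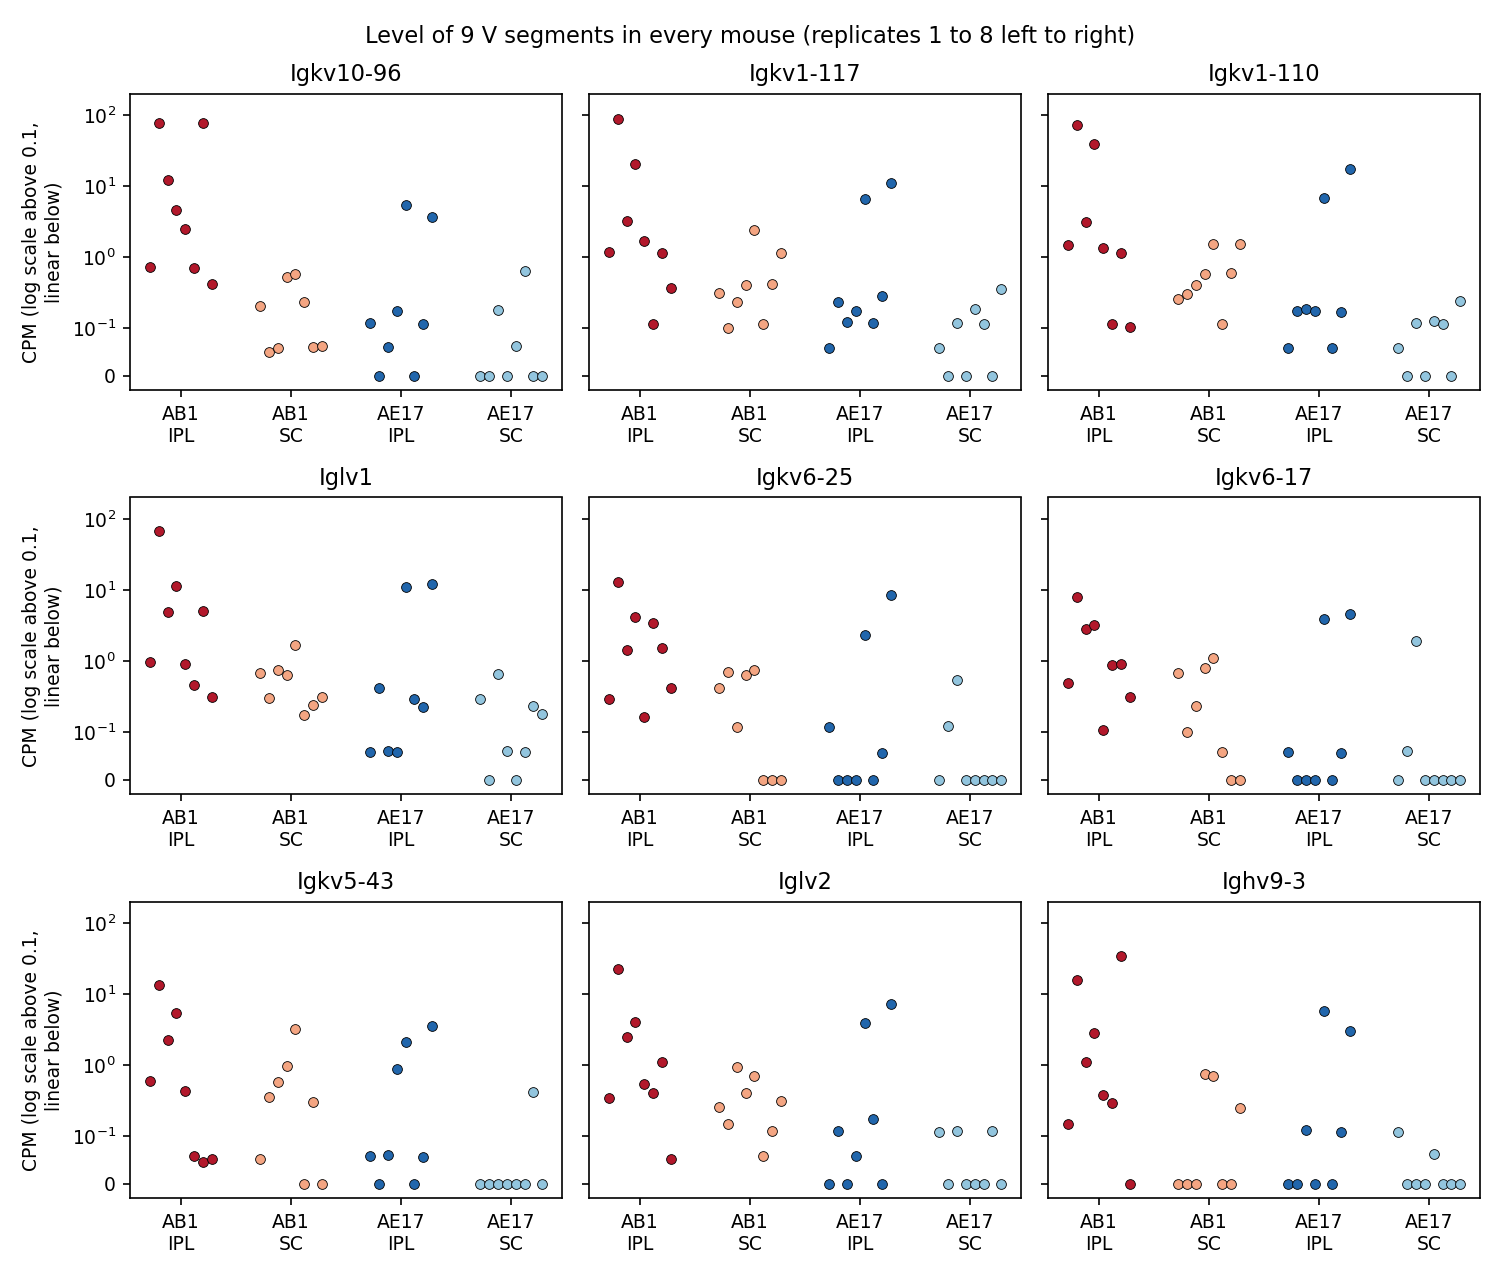
CPM of 9 segments past the threshold in AB1 IPL versus SC tumors or in AB1 versus AE17 tumors, with 1 point per mouse (log scale above 0.1 CPM, linear below). Igkv10-96 separates AB1 IPL from AB1 SC tumors in all but 1 IPL tumor, and AE17 IPL 5 and 8 are the highest AE17 tumors for all 9.

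In AE17, 2.60% of all genes tested rose and 3.13% fell in IPL tumors. No V segment had enough counts in enough tumors to enter the test. All 8 AE17 SC tumors were in lane 1 with 3 of the IPL tumors, and the other 5 IPL tumors were in lane 2. With no filter, 0 of 207 segments passed (edgeR, lowest adjusted p = 0.0655), where 0.763% of all genes rose and 1.17% fell. At an unadjusted p under 0.05, 189 segments were higher and 1 was lower, where 9.62% and 8.53% of all genes were. The median log2 fold change of the 207 was 4.67, and AE17 IPL 5 and 8, with 96.4% of the group's V counts, supplied most of the counts behind these values. DESeq2 called 16 of 207 higher and 0 lower, with no adjusted p for 126, where 4.82% of all genes rose and 4.90% fell. Igkv14-111 had the lowest adjusted p among these 16 (log2 fold change 5.22 ± 1.18 SE, DESeq2 adjusted p = 0.000731) and was picked out once the values were known. It held 45 counts in AE17 IPL 6, as described above.

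Between the models, 12 segments were tested over both sites. Of these, 6 were higher in AB1 and 0 were lower, where 34.3% of all genes tested were higher in AB1 and 35.2% were lower. All 12 had a log2 difference above 0, and since the filter keeps segments that are high in several tumors, this count describes these 12 and not the 209. Igkv10-96 (2.56 ± 1.02 SE), Igkv1-117 (2.58 ± 0.94) and Igkv1-110 (2.55 ± 0.99) were among them on the log2 scale, with adjusted p of 0.0267, 0.0165 and 0.0235 by edgeR. Without AB1 IPL 2 the values of Igkv1-117 (1.66) and Igkv1-110 (1.98) were not past the threshold, and Igkv10-96 was not without AB1 SC 4 or without AB1 SC 5.

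Ighv9-3 had 0 to 738 counts (median 14.5) in AB1 IPL and 0 to 13 (median 0) in AB1 SC tumors, and 0 to 95 (median 1.0) in AE17 IPL and 0 to 2 (median 0) in AE17 SC tumors. Its log2 difference was 2.74 ± 1.22 (SE, adjusted p = 0.0477). Igkv5-43 had 1 to 251, 0 to 55, 0 to 63 and 0 to 7 counts in the same order, with medians of 10.0, 6.0, 1.0 and 0, and a log2 difference of 2.62 ± 0.91 (SE, adjusted p = 0.0122). Iglv2 had 1 to 429, 1 to 16, 0 to 126 and 0 to 2 counts, with medians of 17, 5.0, 1.5 and 0, and a log2 difference of 2.15 ± 0.95 (SE, adjusted p = 0.0440). The groups overlapped for all 3. Igkv5-43 was at 4.15 without AE17 SC 7, and Iglv2 at 1.34 without AB1 IPL 2. Of the 32 fits that left out 1 mouse, Ighv9-3 was no longer past the threshold in 18 and Iglv2 in 16.

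The number higher in AB1 was 2 without AB1 IPL 2, 10 without AB1 IPL 6 and 12 without AE17 SC 3, and it was 0 with sequencing lane in the fit. Lane 3 held AB1 tumors only and lane 1 AE17 tumors only, so that lane and model overlap. With no filter 25 of 209 segments were higher in AB1 (21.8% of all genes) and 3 were lower (22.5% of all genes), namely Ighv1-58, Ighv1-62-3 and Ighv1-72. DESeq2 gave 33 higher (25.3% of all genes) and 6 lower (27.3%). The 3 segments lower with no filter are from the Ighv1 family, and they were picked out once the values were known.

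The difference of the site effects between the models was past the threshold for 0 of the 12 segments tested (edgeR, lowest adjusted p = 0.345), with 0 at an unadjusted p under 0.05, where 11.9% of all genes were called higher and 8.62% lower. With no filter 1 of 209, Ighv1-43, was higher and 2, Igkv14-111 and Igkv2-112, were lower, where 5.34% and 3.67% of all genes were. DESeq2 called 5 lower, namely Igkv14-111, Igkv3-7, Igkv4-68, Igkv6-15 and Ighv7-3, where 7.79% of all genes were lower. The DESeq2 values of Ighv7-3 (-19.63) and Igkv3-7 (-13.68) were unlike those of its fits per model, which on the log2 scale gave 2.82 (AB1) and 5.53 (AE17) for Ighv7-3 and 3.36 and 3.17 for Igkv3-7. In edgeR with no filter Igkv3-7 was at 1.36 ± 6.86 (SE), in the opposite direction. Igkv14-111 was lower by both tools, with log2 differences of -4.84 ± 1.40 (SE) and -4.98 ± 1.27 (SE), and these segments were picked out once the values were known.

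A few segments had counts in 1 model alone. Ighv5-16 with 33 counts, Ighv1-62-2 and Ighv1-71 with 32 each and Ighv1-58 with 21 had 0 counts in all 16 AB1 tumors. Ighv6-7 with 92 counts, all in AB1 IPL 2, and Ighv3-7 with 21 had 0 counts in all 16 AE17 tumors. Each of these 6 segments had at least 3 counts in only 1 or 2 mice. A count of 0 in a tumor allows up to 3 counts.

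V segments resemble each other closely, which limits how well reads of 50 bases can be assigned. Median identity to the nearest relative was 95.2% over the 209 members, and 113 were at 95% or more. Of the members, 186 shared at least 1 stretch of 50 bases with a transcript of another gene, and 34 shared at least 50% of theirs. The V exons of Ighv1-62-2 and Ighv1-71 are identical, and the counts of both were the same in all 32 mice. No other pair of members had the same counts throughout. Whether a read that matches several segments was counted once for each was not tested, and such counting would raise V totals and the counts of near relatives alike. Igkv1-110 shared 50.9% of its 50-base stretches with other transcripts, Igkv5-43 51.2% and Igkv10-96 32.6%, so that the levels of single segments hold counts that could belong to relatives.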

How the data were processed

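The authors extracted RNA from whole tumors, sequenced 50 bp single-end reads, mapped them with HISAT2 2.0.4 to a mouse genome they call mm11, and deposited counts of reads per gene made with SummerizeOverlaps, without normalization. How reads matching several V genes were counted is not given in the sources used here. All 209 identifiers matched GENCODE M21 on GRCm38 with their version, which gave coordinates, exon lengths and sequences. The segments and the gene lists beside them were chosen with earlier results of these data known, so no p is given for sums or usage over the segments.

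CPM used TMM library sizes. Segments were tested with all other genes in R 4.3.3 with edgeR 4.0.16 (filterByExpr, TMM, robust quasi-likelihood F test, two-sided, Benjamini-Hochberg adjustment over all genes tested), within each model for site and in 1 fit of 32 mice for model and for the difference of site effects. edgeR was tested on simulated data. DESeq2 1.42.0, other scalings and filters, lane, a block for the replicate number, and fits without each mouse in turn were tried. Usage was computed in Python 3.11.15. Replicates are separate mice, grouped by the labels. At the depths given, 3 counts were taken as detected. Named segments are the 10 with the most counts, up to 6 per direction past an adjusted p of 0.05 in each comparison, those of highest median usage in a group, those leading the 2 most concentrated tumors of a group with at least 100 counts on the locus, and those nearest the threshold. Genes of the marker lists without a row are not analysed here.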

Additional observations from a re-analysis of the deposited data

Results flagged for a closer look

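Of 44 group values examined for a tumor that stands apart from the other tumors of its group (Dixon's test at 95%), 3 were past the critical value, where chance passes about 1 in 20. Igkv10-96 took 61.2% of Igkv usage in AB1 IPL 7, with the next highest leading share of that group at 27.5%. In AB1 SC 3, Iglv made up 22.2% of light chain V usage, on 30 of 134 light chain V counts (22.4%, exact 95% interval 15.6 to 30.4%), and the next highest AB1 SC tumor was at 10.6%. In AE17 IPL 4, Ighv made up 24.7% of all V usage, on 28 of 113 counts (24.8%, 17.1 to 33.8%), with the other 7 AE17 IPL tumors between 42.9% and 55.8%.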

How the results depend on the processing

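The named segments past the threshold of the main test kept their direction under every alternative run. Igkv3-7 did not enter the main test. In the difference of the site effects it was at -13.68 by DESeq2 and at 1.36 in edgeR with no filter. Counts of segments past the threshold depended on the filter, the tool and sequencing lane. For AB1 IPL versus SC tumors, 6 were higher, against 87 with no filter, 84 with DESeq2, 10 in 1 fit of all 32 mice, 0 with lane in the fit and 0 within lane 3. Leaving out each mouse gave 5 to 8. For AE17 it was 0, against 16 with DESeq2 and 4 in 1 fit of all 32 mice. For AB1 versus AE17, 6 higher became 25 with no filter, 33 with DESeq2, 0 with lane in the fit and 2 to 12 without single mice, and 0 lower became 3 with no filter and 6 with DESeq2. For the difference of the site effects, 0 higher became 1 with no filter, and 0 lower became 2 with no filter, 5 with DESeq2 and 0 to 1 without single mice. The share of all genes called is not given here for the 1 fit of all 32 mice, the lane fits or the fits without single mice. Counts from those fits cannot be set against it. The cause of these changes was not tested.

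With replicate number as a block, 1 segment was higher in AB1 and 5 between the models. The share of all genes called in these fits is not given here, so these counts cannot be set against it. Mice of the same number in both sites are different animals, and their deviations correlated with a mean of -0.118 in AB1 (0 of 8 mice best with their own number) and 0.072 in AE17 (3 of 8), so the number pairs nothing known.

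The differences of V totals ranged from 2.04 to 3.01 in AB1 and 2.12 to 3.26 in AE17 without single mice. The AE17 value without IPL 5 and 8 was chosen after seeing the data. Of 372 alternative values of the named segments, 297 stayed past the threshold and 75 did not, with 0 reversed. Asking for 10 counts in all mice left 0 segments to test. With 24 counts or fewer on Ighv in 6 of the AE17 SC tumors, depth limited any statement on their usage.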

Other observations

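Classes of the heavy chain constant region varied beside the V segments. Among classes other than IgM, IgD and IgE, Igha (IgA) held the most counts in 5 of 8 AB1 IPL, 7 of 8 AB1 SC, 4 of 8 AE17 IPL and 5 of 8 AE17 SC tumors. Of the 6 tumors with the most V counts, Igha led only in AB1 IPL 3, with 61.1% of such counts. Ighg3 led in AB1 IPL 2 with 34.4% of such counts, and Ighg2c led in AE17 IPL 5 with 51.6% and in AE17 IPL 8 with 55.2%. Ighg2c also led in AB1 IPL 4 and AB1 IPL 7. The reference genome is that of C57BL/6 mice, which carry Ighg2c where BALB/c mice carry Ighg2a, so counts on Ighg2c in AB1 tumors cannot be told apart from reads of that other gene.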
